A study of Homo sapiens with 8 samples.

Results

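The genes described here are 9 ligands and direct response genes of the TGF-beta and BMP pathways, chosen by name from the annotation: *TGFB1*, *TGFB2*, *INHBA*, *BMP4*, *BMP7*, *ID1*, *ID2*, *ID3* and *SMAD7*. They are 9 of 33791 genes with transcripts in the data, and 8 of them are among the 14653 genes with enough counts to be tested. *BMP7* had at most 1 count in a library and was not tested. PNT2 cells, which are immortalised epithelial cells of the human prostate, were profiled by RNA-seq to ask which genes respond to the loss of 2 transcriptional repressors, CIC (Capicua) and ERF, singly or together. Each of 4 groups had 2 libraries, A and B.

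The WT libraries are labelled as wild type, with no hairpin or guide named. The 2 libraries labelled as *ERF* KD (the *ERF* KD-labelled pair) are meant to carry a lentiviral short hairpin RNA against *ERF*, and the *CIC* KO-labelled pair likewise a guide RNA with Cas9 against *CIC*. The *CIC-ERF* codeletion libraries combine a hairpin with a guide, so that this group holds a knockdown and a knockout rather than a deletion of the locus. All 4 groups share the PNT2 background and serum culture, and serum itself contains TGF-beta family ligands. The labels do not say which hairpin or guide a library carries, what the letters A and B stand for, or whether the cells were clones, so p-values measure the spread between these libraries, which may be technical.

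TGF-beta and activin ligands bind receptor kinases that phosphorylate SMAD2 and SMAD3, and BMP ligands bind related receptors that phosphorylate SMAD1, SMAD5 and SMAD9. The active SMADs pair with SMAD4 and switch target genes on or off, among them the *ID* genes, whose products bind E proteins and keep them off DNA, and *SMAD7*, whose product blocks the receptors in a negative feedback. In prostate epithelium TGF-beta is known mainly as a growth-inhibiting signal and as an inducer of epithelial-mesenchymal transition, and ID proteins as markers of undifferentiated, proliferating cells.

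Libraries held between 19477473 and 25813157 estimated counts, of which 93.2% to 93.3% were on the 33791 genes. Levels are given as CPM, a count scaled by the library's counts on tested genes and its TMM normalization factor to the usual common total. The floor of detection was taken as 3 counts, 0.125 to 0.165 CPM by counts on all genes without that factor. *ERF* mRNA did not follow the labels of the single-loss groups: it was 55.8 and 55.9 CPM in WT A and B, 81.2 and 77.8 CPM in the *ERF* KD-labelled pair, 18.8 and 11.7 CPM in the *CIC* KO-labelled pair and 11.6 and 10.4 CPM in the codeletion. Every value below is therefore given for the libraries as labelled, and a direction tied to *ERF* KD or *CIC* KO is a statement about the label. The names of the deposited files of these 4 libraries also give the other single loss than their labels do. Whether the 2 labels are exchanged could not be settled here, and if they are, each value of one single-loss pair belongs to the other. The study reports the ETS factor *ETV1* as repressed by both CIC and ERF. By its qRT-PCR in PNT2 cells, silencing of *ERF* alone raised *ETV1* and not *ETV4* or *ETV5*. Loss of *CIC*, alone or with that of *ERF*, raised each of these genes there. *ETV1* was 70.7 and 49.4 CPM in the *ERF* KD-labelled pair against 11.4 and 11.7 CPM in WT. In the codeletion *ETV1* was 19.5 and 22.4 CPM. In the *CIC* KO-labelled pair it was 11.8 and 11.4 CPM, a log2 fold change of 0.01 (SE 0.20, edgeR adjusted p = 0.9997). Its relatives *ETV4* and *ETV5*, also repressed by CIC, rose in the *ERF* KD-labelled pair by 1.51 (SE 0.21, edgeR adjusted p = 0.00369) and 1.95 (SE 0.20, edgeR adjusted p = 0.000718) on the log2 scale. They stood at 0.22 (SE 0.21) and 0.41 (SE 0.19) in the *CIC* KO-labelled pair, where neither passed (edgeR adjusted p = 0.9997 for both). In the codeletion they stood at 1.61 and 1.29 (edgeR adjusted p = 0.0590 and 0.0613). *CIC* mRNA was 128 and 129 CPM in WT, 109 and 109 CPM in the *ERF* KD-labelled pair, 132 and 131 CPM in the *CIC* KO-labelled pair and 90.9 and 66.4 CPM in the codeletion, and a frameshift made by a guide need not lower it. The summed level of 11 epithelial markers ran from 1876 to 2333 CPM in the *ERF* KD-labelled pair, against 5139 to 6051 CPM in WT, 5350 to 6501 CPM in the *CIC* KO-labelled pair and 5291 to 6409 CPM in the codeletion. In the *ERF* KD-labelled pair, 10 of these 11 markers passed as lower than in WT (edgeR adjusted p under 0.05). Of all genes, 6.07% passed there as lower and 4.01% as higher. Of 7 mesenchymal markers, 5 passed as higher and 1 as lower, and *FN1* and *SNAI2* were both below WT in each library. The summed mesenchymal level, 3381 to 4270 CPM against 3280 to 4317 CPM in WT, overlapped with that of WT. Most of the WT sum was *FN1*, at 3038 and 3948 CPM in WT and 1587 and 1966 CPM in the *ERF* KD-labelled pair. *VIM* was 105 and 211 CPM in WT and 1497 and 1953 CPM in that pair, so the sum hides opposite changes. The prostate luminal marker *KLK3* and the fibroblast marker *LUM* were at 0 in every library. The marker shift lay in the same libraries as the changes of the *ERF* KD-labelled pair described below, and its part in them was not tested. Less RNA per cell and fewer cells of a kind cannot be told apart in such bulk libraries.

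Compared per transcript length, as TPM, *ID1* and *ID3* were the highest of the 9 in WT cells, and *BMP4*, *SMAD7* and *BMP7* the lowest. The mean in WT was 153 ± 13.5 TPM (SD, n = 2) for *ID1* and 90.6 ± 15.1 TPM for *ID3*. *TGFB2* followed at 60.1 ± 19.3 TPM, *TGFB1* at 36.4 ± 1.88 TPM, *INHBA* at 30.7 ± 8.59 TPM and *ID2* at 21.3 ± 5.62 TPM. *BMP4* at 8.99 ± 2.65 TPM and *SMAD7* at 8.67 ± 0.649 TPM came last before *BMP7*, at 0.0212 ± 0.0301 TPM. Neighbours whose libraries overlapped in WT were *TGFB1* and *INHBA*, *INHBA* and *ID2*, and *BMP4* and *SMAD7*. In the *ERF* KD-labelled pair the order differed, with *TGFB2* at 113 ± 30.1 TPM beside *ID1* at 103 ± 21.2 TPM, whose libraries overlapped, and *INHBA* at 17.2 ± 8.57 TPM level with *BMP4* at 17.2 ± 8.80 TPM. In the *CIC* KO-labelled pair the 9 genes stood in the same order as in WT.

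**Figure D1:**
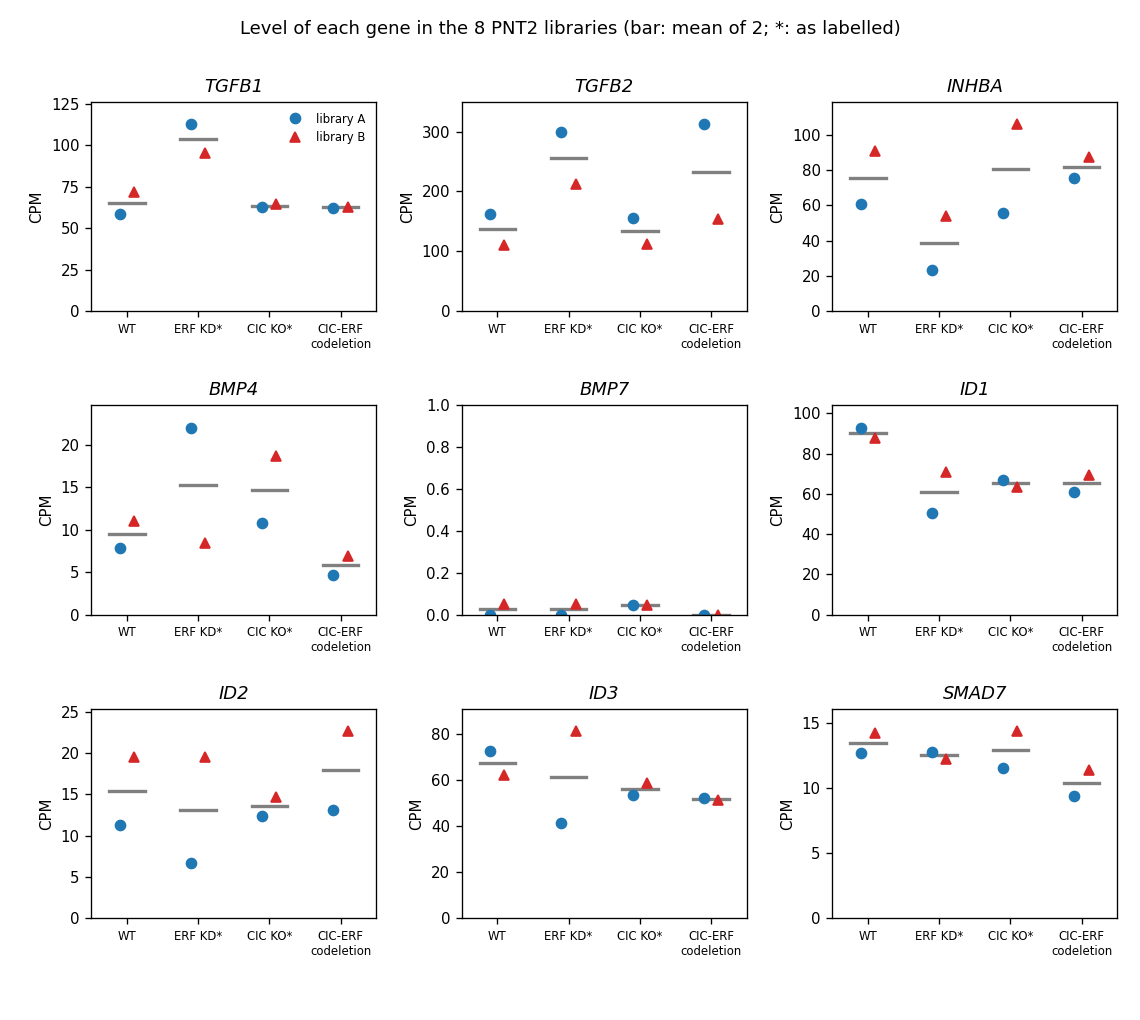
Level of each of the 9 genes in CPM (vertical axis, from 0) in the 2 libraries of each group (horizontal axis; circles, library A; triangles, library B; grey bar, mean of 2; an asterisk marks groups named as labelled). *TGFB1* is above every other library in both *ERF* KD-labelled libraries, at 95.3 and 113 CPM, and *BMP7* is at the floor throughout.

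The bases next to the RefSeq start sites (GRCh38.p14) of *TGFB1*, *TGFB2* and *ID3* are given here. *TGFB1* and *TGFB2* are the ligands whose levels were highest in the *ERF* KD-labelled pair, and *ID3* is the only one of the 8 with a promoter entry that holds a CIC octamer. Each run is given 5′ to 3′ on the strand of the gene. Matches to the motifs sought, listed below, are in capitals, and *TGFB1* has none of them. The *TGFB1* stretch is chr19:41353923-41354172 on the minus strand and the *TGFB2* stretch is chr1:218345086-218345335 on the plus strand, each the 250 bases before the start site. The *ID3* stretch is 30 bases around the octamer, chr1:23559544-23559573 on the minus strand, which lies before the RefSeq start and inside the first exon of *ID3-201* in GENCODE 29.
TGFB1: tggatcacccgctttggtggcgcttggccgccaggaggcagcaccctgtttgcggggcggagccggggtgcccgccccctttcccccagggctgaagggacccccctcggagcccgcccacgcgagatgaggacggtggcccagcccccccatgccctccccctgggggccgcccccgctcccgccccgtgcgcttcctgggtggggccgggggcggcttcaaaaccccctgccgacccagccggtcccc
TGFB2: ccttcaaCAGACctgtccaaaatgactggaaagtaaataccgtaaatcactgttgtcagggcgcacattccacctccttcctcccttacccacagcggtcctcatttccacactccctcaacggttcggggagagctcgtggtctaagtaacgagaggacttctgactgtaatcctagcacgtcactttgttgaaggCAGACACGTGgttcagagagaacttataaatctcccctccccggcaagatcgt
ID3: gcgggccatttTGAATAAAgaggcgtgcct

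Of the 9 genes, 8 had an entry among 34943 RefSeq promoters of 300 bases, 250 before and 50 after a start site, with 12 start sites in all. Motifs were sought on both strands. A CIC octamer (TGAATGAA, TGAATAAA, TCAATGAA or TCAATAAA) was in 4.53% of all promoters and in 1 of these 12, that of *ID3*, with TGAATAAA starting at -61. The ETS motif CCGGAAG was in 10.2% of all promoters and in 0 of the 12, and the palindromic SMAD motif GTCTAGAC in 0.203% and in 0. The shorter SMAD motif CAGAC was in 45.3% of all promoters and in 8 of the 12, in *ID3*, *TGFB2*, *INHBA*, *BMP4* and *SMAD7*. The motif GGCGCC of BMP-activated SMADs was in 19.2% of all promoters and among these in *BMP4* alone. The E-box CACGTG was in 7.23% of all promoters and in *TGFB2* and *BMP4*, and in *TGFB2* it overlaps a CAGAC by 1 base. These matches are letters in a window and describe no binding.

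*TGFB1*, the main secreted TGF-beta of most tissues, was the 1 gene of the 9 called in the *ERF* KD-labelled pair against WT when the replicate letter was left out of the fit, and it rose. With the letter as a block *TGFB2* rose as well. *TGFB1* was 58.4 and 71.8 CPM in WT A and B, 113 and 95.3 CPM in the *ERF* KD-labelled pair, 62.6 and 64.5 CPM in the *CIC* KO-labelled pair, and 62.4 and 62.8 CPM in the codeletion. Both *ERF* KD-labelled libraries were above the other 6, and those 6 overlapped. The log2 fold change of the *ERF* KD-labelled pair against WT was 0.68 (SE 0.15, 95% interval 0.34 to 1.01, edgeR quasi-likelihood adjusted p = 0.0238), a 1.60-fold difference. By CPM, the ratio within letter A was 1.93-fold and within letter B 1.33-fold. Against the *CIC* KO-labelled pair, the *ERF* KD-labelled pair was higher by 0.71 (SE 0.15, edgeR adjusted p = 0.0197). The codeletion was lower than the *ERF* KD-labelled pair by a log2 fold change of -0.73 (SE 0.15, edgeR adjusted p = 0.0158) and stood at -0.06 against WT (interval -0.39 to 0.28, edgeR adjusted p = 0.897). The *CIC* KO-labelled pair stood at -0.04 against WT (interval -0.37 to 0.30, edgeR adjusted p = 0.9997). The 3 comparisons that called *TGFB1* share the *ERF* KD-labelled pair.

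The *TGFB1* difference from WT rested on few libraries. In edgeR it did not pass without WT A (adjusted p = 0.210), without WT B (0.0512), without the *ERF* KD-labelled library A (0.110) or in a fit of those groups alone (0.0601), and over 15 alternatives the adjusted p ran from 0.00180 to 0.210. *TGFB1* lies at chr19:41301587-41353911 on the minus strand (GENCODE 29, GRCh38), and *TGFB1-201* carried 81.6% to 95.6% of its TPM. It shares 215 of its 3238 exonic bases with *HNRNPUL1* on the opposite strand, and the strandedness of the libraries is not given in the sources used here. *HNRNPUL1* was 501 and 541 CPM in WT and 593 and 570 CPM in the *ERF* KD-labelled pair, a log2 fold change of 0.16 (SE 0.12, edgeR adjusted p = 0.484).

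*TGFB2*, a second TGF-beta ligand, was 162 and 111 CPM in WT A and B and 299 and 212 CPM in the *ERF* KD-labelled pair. It was 155 and 112 CPM in the *CIC* KO-labelled pair and 312 and 154 CPM in the codeletion. Library A was above library B in 4 of 4 groups, so that the codeletion overlapped with WT, whereas the *ERF* KD-labelled pair lay above all 4 WT and *CIC* KO-labelled libraries. The log2 fold change against WT was 0.90 in the *ERF* KD-labelled pair (SE 0.35, edgeR adjusted p = 0.151) and 0.77 in the codeletion (SE 0.35, edgeR adjusted p = 0.385), and neither passed. With the letter as a block the 2 values were 0.91 (SE 0.15, edgeR adjusted p = 0.00370) and 0.72 (SE 0.15, edgeR adjusted p = 0.0453), and both passed. Over the 15 alternatives the adjusted p ran from 2.79e-05 to 0.479 for the first and from 0.00217 to 0.906 for the second. Within a letter, the *ERF* KD-labelled pair was 1.85-fold (A) and 1.90-fold (B) of WT, and the codeletion 1.93-fold (A) and 1.39-fold (B). The codeletion differed from the *ERF* KD-labelled pair by -0.13 (interval -0.92 to 0.66, edgeR adjusted p = 0.861). *TGFB2* lies at chr1:218346235-218444619 on the plus strand, with *TGFB2-202* at 55.2% to 69.1% and *TGFB2-203* at 27.1% to 39.0% of its TPM. It shares 1371 exonic bases with *TGFB2-OT1* on the same strand, which is not analysed here.

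*INHBA*, which encodes the subunit of activin A, had its lowest values in the *ERF* KD-labelled pair. It was 60.9 and 90.5 CPM in WT A and B, 23.4 and 53.9 CPM in the *ERF* KD-labelled pair, 55.4 and 106 CPM in the *CIC* KO-labelled pair, and 75.7 and 87.6 CPM in the codeletion. Both *ERF* KD-labelled libraries were below the other 6, the higher of them by a small margin. The log2 fold change against WT was -0.97 (SE 0.42, interval -1.93 to -0.01, edgeR adjusted p = 0.196), which did not pass. The fit with the letter as a block gave -1.04 (SE 0.21, edgeR adjusted p = 0.0113), which passed, and over the 15 alternatives the adjusted p ran from 1.54e-05 to 0.546. The codeletion against the *ERF* KD-labelled pair gave 1.08 (SE 0.42, edgeR adjusted p = 0.143), and 1.19 with the block (SE 0.21, edgeR adjusted p = 0.00559), with a range of 9.33e-07 to 0.437 over the alternatives. Against WT the codeletion stood at 0.11 (interval -0.83 to 1.05, edgeR adjusted p = 0.933) and the *CIC* KO-labelled pair at 0.09 (interval -0.85 to 1.03, edgeR adjusted p = 0.9997). *INHBA* lies at chr7:41667168-41705834 on the minus strand, and its TPM was shared by *INHBA-201*, 39.1% to 55.0%, and *INHBA-203*, 38.8% to 57.8%.

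The BMP ligands were low. *BMP4*, a ligand that patterns many epithelia, was 7.88 and 11.1 CPM in WT, 22.0 and 8.44 CPM in the *ERF* KD-labelled pair, 10.7 and 18.7 CPM in the *CIC* KO-labelled pair, and 4.66 and 6.94 CPM in the codeletion. The *ERF* KD-labelled library A was the highest of the 8 and library B lay within the WT range, and the codeletion was below all 6 other libraries. Against WT the log2 fold change was 0.69 (interval -0.38 to 1.75, edgeR adjusted p = 0.417) in the *ERF* KD-labelled pair and -0.71 (interval -1.81 to 0.38, edgeR adjusted p = 0.550) in the codeletion. The codeletion stood at -1.35 against the *CIC* KO-labelled pair (SE 0.48, edgeR adjusted p = 0.526) and at -1.40 against the *ERF* KD-labelled pair (SE 0.48, edgeR adjusted p = 0.0998). *BMP4* lies at chr14:53949736-53958761 on the minus strand. No *BMP4* transcript held more than 54.1% of its TPM in any library. *BMP7*, a related ligand at chr20:57168748-57266629 on the minus strand, had 0 or 1 count in each library, at or under 0.0510 CPM and below the floor, so that no fold can be given. Its highest TPM, 1.58 in the *ERF* KD-labelled library B, rested on 1 count.

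*ID1*, a BMP response gene, was lower in the 6 libraries of the 3 altered lines than in WT. It was 92.8 and 87.5 CPM in WT A and B, 50.5 and 71.0 CPM in the *ERF* KD-labelled pair, 67.0 and 63.4 CPM in the *CIC* KO-labelled pair, and 61.0 and 69.6 CPM in the codeletion. Those 6 libraries overlapped with each other and none reached the WT range. The log2 fold change against WT was -0.57 (SE 0.17, edgeR adjusted p = 0.0779) for the *ERF* KD-labelled pair, -0.47 (SE 0.17, edgeR adjusted p = 0.9997) for the *CIC* KO-labelled pair and -0.47 (SE 0.17, edgeR adjusted p = 0.315) for the codeletion. None of them passed, and the 3 share the same 2 WT libraries. With the block the first was -0.58 (SE 0.15, edgeR adjusted p = 0.0334) and passed, and DESeq2 gave it an adjusted p of 0.0320, with a range of 0.0190 to 0.304 over the alternatives. *ID1* lies at chr20:31605283-31606515 on the plus strand, and *ID1-202* carried 90.7% to 95.9% of its TPM.

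*ID2*, used by the study in LNCaP cells as a read-out of a chemical ETV1 inhibitor, is also induced by BMP signalling. It was 11.3 and 19.6 CPM in WT A and B, 6.72 and 19.6 CPM in the *ERF* KD-labelled pair, 12.4 and 14.7 CPM in the *CIC* KO-labelled pair, and 13.2 and 22.7 CPM in the codeletion. The groups overlapped and the letters did not: the 4 libraries A ran from 6.72 to 13.2 CPM and the 4 libraries B from 14.7 to 22.7 CPM. The log2 fold change against WT was -0.23 (interval -1.35 to 0.89, edgeR adjusted p = 0.817) in the *ERF* KD-labelled pair, -0.19 (interval -1.31 to 0.93, edgeR adjusted p = 0.9997) in the *CIC* KO-labelled pair and 0.21 (interval -0.90 to 1.33, edgeR adjusted p = 0.881) in the codeletion. *ETV1* itself rose by 2.38 in the *ERF* KD-labelled pair (SE 0.20, edgeR adjusted p = 0.000300) and stood at 0.86 in the codeletion (SE 0.20, edgeR adjusted p = 0.128). The *ETV1* interval in the codeletion was 0.41 to 1.31. With the letter as a block the *ID2* interval in the codeletion was -0.39 to 0.82. These values set no expected size for a change of *ID2*, and a link between the 2 genes was not tested. *ATAD2*, the other ETV1 read-out of the study, was 376 and 399 CPM in WT, 369 and 421 CPM in the *ERF* KD-labelled pair, 391 and 417 CPM in the *CIC* KO-labelled pair and 528 and 454 CPM in the codeletion. Its log2 fold change against WT was 0.03 (SE 0.14, edgeR adjusted p = 0.931) in the *ERF* KD-labelled pair, where *ETV1* was highest, 0.06 (SE 0.14, edgeR adjusted p = 0.9997) in the *CIC* KO-labelled pair and 0.34 (SE 0.14, edgeR adjusted p = 0.354) in the codeletion. *ID2* lies at chr2:8678845-8684453 on the plus strand, shares 38 exonic bases with *ID2-AS1* on the opposite strand, and had 64.5% to 93.9% of its TPM on *ID2-203*.

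*ID3*, a BMP response gene like *ID1* and the holder of the CIC octamer shown above, was 72.5 and 61.9 CPM in WT and 41.1 and 81.0 CPM in the *ERF* KD-labelled pair. It was 53.5 and 58.4 CPM in the *CIC* KO-labelled pair and 52.1 and 51.0 CPM in the codeletion. The *ERF* KD-labelled pair held both the lowest and the highest value, and the 4 others were below WT. Against WT its log2 fold changes were -0.14 (interval -0.76 to 0.48, edgeR adjusted p = 0.803), -0.26 (interval -0.89 to 0.36, edgeR adjusted p = 0.9997) and -0.38 (interval -1.005 to 0.24, edgeR adjusted p = 0.571) in the 3 lines in that order. *ID3* lies at chr1:23557918-23559794 on the minus strand, with 93.3% to 98.7% of its TPM on *ID3-201*.

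*SMAD7*, the feedback inhibitor, varied least of the 8 tested genes. It was 12.7 and 14.2 CPM in WT, 12.7 and 12.2 CPM in the *ERF* KD-labelled pair, 11.5 and 14.3 CPM in the *CIC* KO-labelled pair, and 9.35 and 11.4 CPM in the codeletion. The codeletion was below the other 6 libraries and the rest overlapped. Relative to WT the log2 fold changes were -0.11 (interval -0.58 to 0.36, edgeR adjusted p = 0.794), -0.06 (interval -0.53 to 0.41, edgeR adjusted p = 0.9997) and -0.38 (interval -0.85 to 0.09, edgeR adjusted p = 0.468) in the 3 lines in that order. *SMAD7* lies at chr18:48919853-48952052 on the minus strand, with 39.2% to 73.1% of its TPM on *SMAD7-201*.

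**Figure D2:**
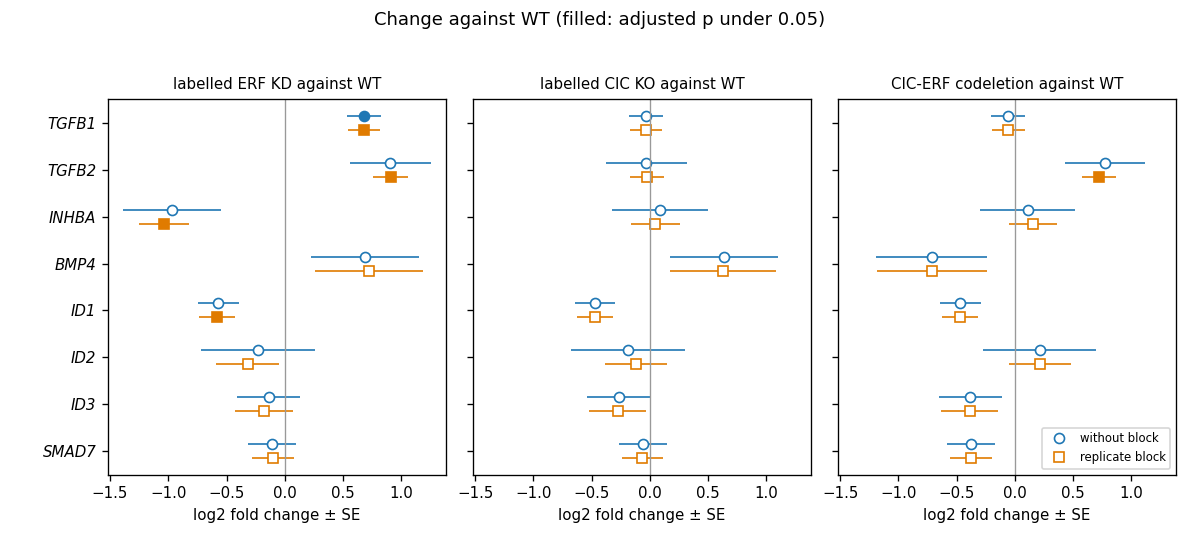
Log2 fold change against WT (horizontal axis, ± SE) of the 8 tested genes (vertical axis) in the *ERF* KD-labelled pair (left), the *CIC* KO-labelled pair (middle) and the codeletion (right), from edgeR without (blue circles) and with (orange squares) the replicate letter as a block; filled symbols have an adjusted p under 0.05. Without the block the filled symbol is *TGFB1* in the left panel, and with it *TGFB2*, *INHBA* and *ID1* join there and *TGFB2* in the right panel.

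Counted over the 8 tested genes, 1 was called in the *ERF* KD-labelled pair against WT (*TGFB1*, up), where called means an adjusted p under 0.05 and 10.1% of all 14653 genes were called, 4.01% higher and 6.07% lower. The median log2 fold change of the 8 was -0.12, beside 0.01 over all genes. The codeletion against the *ERF* KD-labelled pair gave 1 call (*TGFB1*, down), beside 11.7% of all genes, 6.04% higher and 5.62% lower. In the *ERF* KD-labelled pair against the *CIC* KO-labelled pair 1 was called (*TGFB1*, up), against 9.4% of all genes. One call among 8 genes is close to these background shares.

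In edgeR 0 of the 8 were called in the *CIC* KO-labelled pair against WT, where 0% of all genes were called, and 1 (*ID1*) had an unadjusted p under 0.05. In the codeletion against WT 0 were called, against 0.0682% of all genes, and again *ID1* alone had an unadjusted p under 0.05. In the codeletion against the *CIC* KO-labelled pair 0 were called, against 0% of all genes, with 2 (*TGFB2* and *BMP4*) at an unadjusted p under 0.05. Of all 14653 genes, 587, 1950 and 1216 had such an unadjusted p, in the order of the comparisons. DESeq2 and limma on log2 TPM also called 0 of the 8 in these 3 comparisons. Of all genes, DESeq2 called 0.177%, 3.06% and 1% in the same order, and limma at most 0.0478%.

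With the replicate letter as a block the counts were larger, for all genes as for these. The *ERF* KD-labelled pair against WT then had 4 called (*TGFB1* and *TGFB2* up, *INHBA* and *ID1* down), against 18.2% of all genes. The codeletion against WT had 1 (*TGFB2*, up), against 2.49%. The codeletion against the *ERF* KD-labelled pair had 2 (*INHBA* up, *TGFB1* down), against 20.6%, and the *ERF* KD-labelled pair against the *CIC* KO-labelled pair had 3 (*TGFB1* and *TGFB2* up, *INHBA* down), against 16.5%.

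The interaction term asks whether the step from the *ERF* KD-labelled pair to the codeletion differs from the step from WT to the *CIC* KO-labelled pair. In edgeR 0 of the 8 genes passed, against 4.15% of all genes, and 3 had an unadjusted p under 0.05, beside 2565 of all 14653 genes. DESeq2 called 1 (*BMP4*), beside 7.92% of all genes. Limma on log2(TPM + 1) and log2(TPM + 0.1) called 0, beside 2.13% and 2.14% of all genes. The term was -0.70 for *TGFB1* (SE 0.21, edgeR adjusted p = 0.120), -2.03 for *BMP4* (SE 0.67, edgeR adjusted p = 0.158) and 0.57 for *ID1* (SE 0.24, edgeR adjusted p = 0.276). With the block *INHBA* passed at 1.14 (SE 0.30, edgeR adjusted p = 0.0479), against 9.55% of all genes, beside 0.99 without it (SE 0.58, edgeR adjusted p = 0.458). Over 14 alternatives its adjusted p ran from 0.00531 to 0.741.

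Several of these genes differed between the libraries A and B in the same direction in each group. On the log2(CPM + 0.5) scale, *INHBA* was higher in B than in A by 0.57 in WT, 1.19 in the *ERF* KD-labelled pair, 0.93 in the *CIC* KO-labelled pair and 0.21 in the codeletion. *ID2* was higher in B in 4 of 4 groups as well, by 0.24 to 1.47. *TGFB2* was lower in B in 4 of 4 groups, with differences of -0.53, -0.50, -0.47 and -1.01 in the same order. *BMP4* was higher in B in 3 groups and lower by 1.33 in the *ERF* KD-labelled pair, while *ID1* and *ID3* had B higher in 2 of 4 groups. *ID3* differed most in the *ERF* KD-labelled pair, where B was 0.97 above A.

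**Figure D3:**
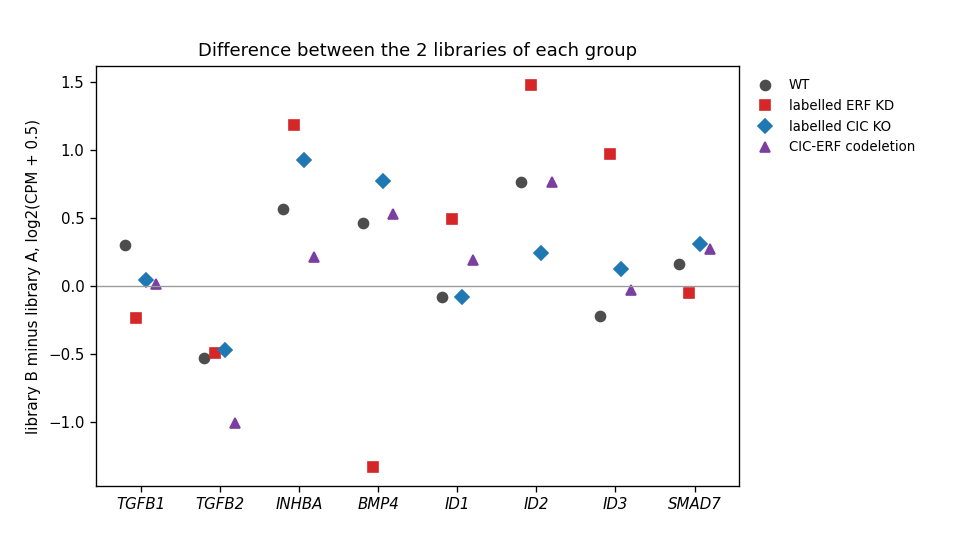
Difference between library B and library A of a group on the log2(CPM + 0.5) scale (vertical axis) for the 8 tested genes (horizontal axis), with 1 symbol for each of the 4 groups. *INHBA* and *ID2* lie above 0 in 4 of 4 groups and *TGFB2* below 0 in 4 of 4, while *BMP4* lies at -1.33 in the *ERF* KD-labelled pair and above 0 in the other 3 groups.

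Around these 9 genes, 78 other genes were listed by role, all of the TGF-beta and BMP pathways except *ATAD2*, and 66 of them were tested. In the *ERF* KD-labelled pair against WT 12 of the 66 changed, 5 up and 7 down, beside the 10.1% of all genes given above, and their median log2 fold change was 0.14. By role, the calls were 3 of 8 other ligands, 1 of 12 receptors, 0 of 6 signalling SMADs, 3 of 11 extracellular regulators, 0 of 10 intracellular brakes, 4 of 10 TGF-beta response genes, 1 of 5 BMP response genes, 0 of 3 E proteins and 0 of 1 ETV1 read-out (*ATAD2*). With the block 24 of the 66 were called, beside 18.2% of all genes. In edgeR 0 of the 66 were called in the *CIC* KO-labelled pair against WT, with 5 at an unadjusted p under 0.05, and 0 in the codeletion against WT, with 14. Of all genes, edgeR called 0% and 0.0682% in these comparisons, and 587 and 1950 of 14653 had an unadjusted p under 0.05. DESeq2 called 0 and 4 of the 66, beside 3.06% of all genes in the second, and limma 0 in both. With the block the codeletion had 5, beside 2.49% of all genes, *INHBB* up and *BMP6*, *LTBP1*, *CDKN1A* and *CTGF* down. The genes with too few counts to test included the ligands *BMP2*, *BMP3*, *BMP5*, *GDF5*, *GDF6*, *NODAL*, *LEFTY1* and *LEFTY2*, the receptor *ACVRL1*, and the antagonists *CHRD* and *GREM1*.

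The 5 that rose in the *ERF* KD-labelled pair were a ligand, a receptor, a response gene and a pair of matrix proteins. *CTGF* (also named *CCN2*), a matricellular target of TGF-beta and of YAP, rose from 36.3 and 42.6 CPM in WT to 158 and 209 CPM, a log2 fold change of 2.22 (SE 0.23, edgeR adjusted p = 0.000748). *TGFB3*, the third TGF-beta ligand, rose by 1.69 from 3.70 and 2.45 CPM to 6.58 and 13.4 CPM. *TGFBR1*, the type I receptor kinase for TGF-beta, rose by 1.31 from 104 and 121 CPM to 324 and 234 CPM. *LTBP2* and *LTBP1*, matrix proteins of the latent TGF-beta binding family, rose by 1.302 and 0.78. In none of these 5 did the *ERF* KD-labelled libraries overlap with WT, which their selection by the same comparison makes likely. Of the 66 genes, 25 had both libraries above WT and 14 had both below. The same counts over all genes were not made, so these numbers cannot be set against a background.

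The largest falls included the fourth *ID* gene. *ID4* was 19.4 and 16.8 CPM in WT and 0.961 and 1.59 CPM in the *ERF* KD-labelled pair, a log2 fold change of -3.83 (SE 0.28, edgeR adjusted p = 0.000142), beside -0.57, -0.23 and -0.14 for *ID1*, *ID2* and *ID3*. *ID4* was 13.3 and 11.6 CPM in the *CIC* KO-labelled pair and 12.8 and 13.5 CPM in the codeletion. *INHBB*, the subunit of activin B, fell by 2.49 from 19.8 and 21.1 CPM to 4.27 and 2.98 CPM, and was 93.3 and 36.6 CPM in the codeletion. *CDKN1A*, a cell cycle inhibitor induced by TGF-beta and by p53, fell by 1.93, *GDF15*, a stress-induced ligand, by 1.72, and *JUNB*, an early SMAD target, by 1.58. The other 2 that fell, *LTBP3* and *TGFBI*, lie outside the rule that named the genes above. *ATAD2* was named after its values were seen.

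**Figure D4:**
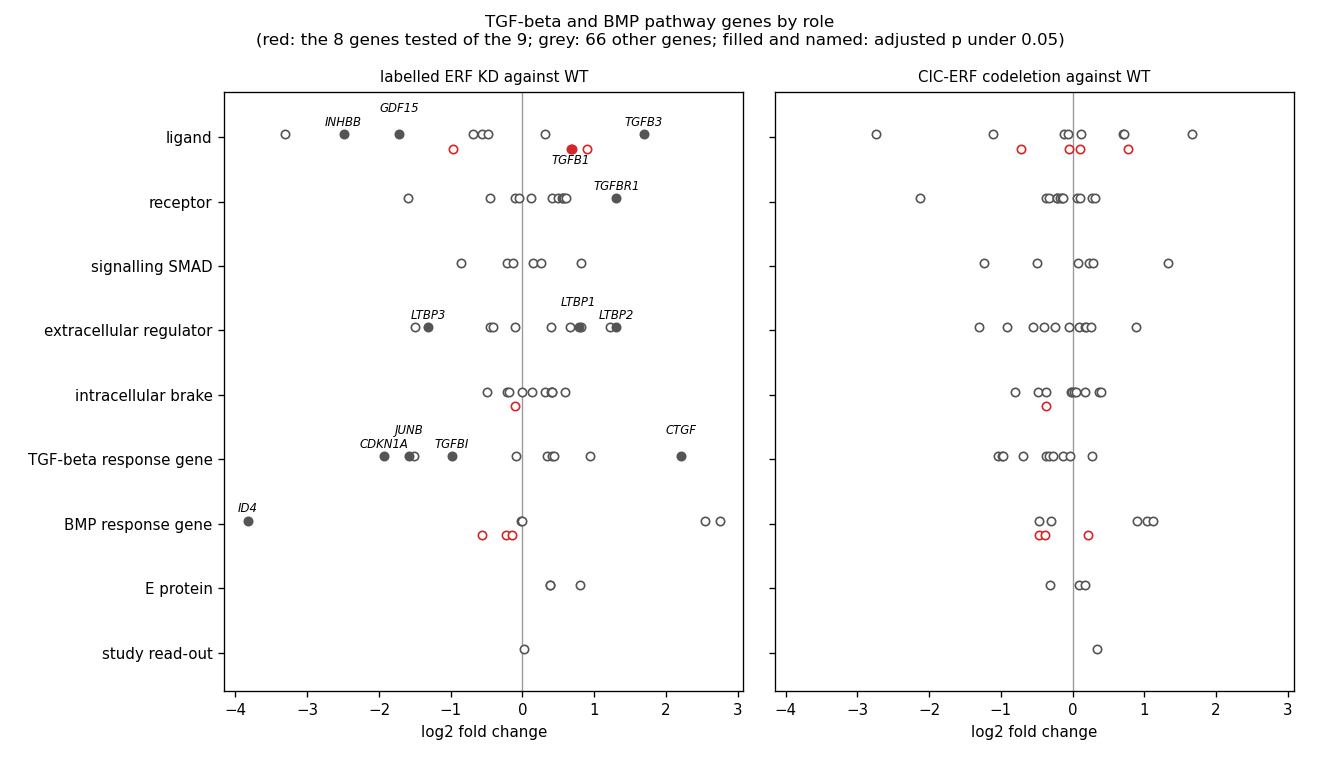
Log2 fold change (horizontal axis) of the TGF-beta and BMP pathway genes and *ATAD2* by role (vertical axis) in the *ERF* KD-labelled pair (left) and the codeletion (right) against WT, from edgeR without the block; red circles are the 8 tested genes of the 9, grey circles 66 others, and filled, named circles have an adjusted p under 0.05. The left panel holds 13 filled circles, from *ID4* at -3.83 to *CTGF* at 2.22, and the right panel holds 0.

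For each tested gene the protein-coding genes with the most similar profile over the 8 libraries were sought among 10893 genes with a mean of at least 5 CPM, by the root mean square difference of centred log2(CPM + 0.5) values. *TGFB1*, whose own SD over the 8 libraries was 0.32, was nearest to *TMEM43* (0.08) and *LAMP2* (0.09). *TGFB2*, with an SD of 0.53, was nearest to *ARSI* (0.09) and *PDE4D* (0.16), and *INHBA*, with an SD of 0.63, to *SLC39A8* (0.16) and *PLXNA2* (0.18). *ID1*, with an SD of 0.26, was nearest to *ZNF827* and *ARHGAP32* (both 0.10), and *ID3*, with an SD of 0.29, to *BRD9* (0.11) and *CCDC9B* (0.12). *SMAD7*, with an SD of 0.18, was nearest to *ZNF34* and *MED9* (both 0.06). The nearest genes were farther away for *ID2* (SD 0.50), at 0.25 for *GPAT3* and 0.26 for *HOXB9*, and for *BMP4* (SD 0.66), at 0.32 for *SUGCT* and 0.33 for *ZBTB47*. These profiles share libraries and depth, and a small difference was to be found by search among so many genes.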

How the data were processed

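The deposited files, 1 for each of 8 libraries, hold kallisto's columns: estimated counts of each transcript, without normalization by the authors, and TPM, which are corrected for transcript length. RSEM is named in the methods and hg19 in the labels. The kallisto version, annotation and strandedness are not given in the sources used here. Of 180253 transcripts in each file 85.0% matched GENCODE release 29 (GRCh38), whose gene positions are given here. Estimated counts were summed per gene and rounded. Reads fitting several transcripts are split by kallisto, which adds error unseen in the replicates.

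Groups were taken from the labels, although the deposited file names of the 4 single-loss libraries give the other single loss (the *ERF* KD-labelled pair is named for *CIC* and the reverse).

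TMM normalization and the quasi-likelihood test of edgeR 4.0.16 (glmQLFit, glmQLFTest, R 4.3.3) were applied to the 14653 genes that filterByExpr kept, in 1 fit of 4 groups, and called means under 0.05 after Benjamini-Hochberg adjustment. Alternatives were DESeq2 1.42.0, no filter for low counts, the letter as a replicate block, length-scaled counts, limma 3.58.1 on log2(TPM + 1) and log2(TPM + 0.1), only the groups compared, and each library left out in turn. Only the edgeR fit without the block, for the *ERF* KD-labelled pair against WT, was run on simulated counts, and its outcome is not given here. No exact permutation test was used, since 2 against 2 allows no p below 0.333. Floors cover counting error only.

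The 2 libraries of a group differed by more than sampling noise (chi-square per degree of freedom 22.3 to 44.7, Spearman's rho across genes 0.984 to 0.990). Between groups, the B minus A differences correlated across genes at 0.136 to 0.335 in 6 of 6 pairs, and the letters were therefore treated as pairing the libraries, a hint from the data, since no source explains the letters. With the block the biological coefficient of variation was 0.142 instead of 0.197. Blocked values are given where they change a call.

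Named beside the 9 genes were *ERF*, *CIC*, *ETV1*, *ETV4* and *ETV5* as a check of the lines, up to 5 pathway genes up and 5 down among those called against WT or in the interaction, and the 2 most similar genes per gene by profile. The genes, lists, motifs and rules were chosen with earlier results of these data known. Promoters are RefSeq's (GRCh38.p14). Some genes of the pathway list are not reported here.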

Additional observations from a re-analysis of the deposited data

Results flagged for a closer look

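The interaction term, which tests whether the step from the *ERF* KD-labelled pair to the codeletion differs from the step from WT to the *CIC* KO-labelled pair, passed in edgeR for 6 of the 66 other genes listed and for 0 of the 8 tested genes of the 9, beside 4.15% of all genes. It was -2.74 on the log2 scale for *CTGF* (SE 0.32, edgeR adjusted p = 0.00312), -2.20 for *LTBP1* (SE 0.26, edgeR adjusted p = 0.00349) and -1.63 for *TGFBR1* (SE 0.30, edgeR adjusted p = 0.0232). In these 3 the *ERF* KD-labelled pair was the highest of the 4 groups, and both codeletion libraries were below both WT libraries. It was 3.90 for *ID4* (SE 0.36, edgeR adjusted p = 0.00106), 3.69 for *INHBB* (SE 0.57, edgeR adjusted p = 0.0110) and 1.53 for *JUNB* (SE 0.26, edgeR adjusted p = 0.0166), in each of which the *ERF* KD-labelled pair was the lowest. The epithelial markers were lowest in the same 2 libraries, and their part in these differences was not tested. No group held enough libraries for a search for outlying samples.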

How the results depend on the processing

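Of 40 log2 fold changes and interaction terms of the 8 tested genes, 22 kept their direction under the alternatives that could be run (15, or 14 for the interaction, which could not be fitted to a pair of groups) and 18 reversed under at least 1. The cause was not tested. The number of the 8 called in the *ERF* KD-labelled pair against WT was 1, beside 10.1% of all genes. It became 3 with DESeq2 (14.6% of all genes) and 4 without the filter on low counts (11.6%). With the replicate block it was 4 (18.2%), and with only the groups compared 0 (9.13%). In the codeletion against WT it was 0 (0.0682%), and 1 without the filter (3.46%) or with the block (2.49%). In the codeletion against the *CIC* KO-labelled pair it was 0 (0%), and 2 without the filter (1.92%). In the codeletion against the *ERF* KD-labelled pair it was 1 (11.7%). It became 3 with DESeq2 (15.8%), 3 without the filter (12.6%) and 2 with the block (20.6%). In the *ERF* KD-labelled pair against the *CIC* KO-labelled pair it was 1 (9.4%). It became 3 with DESeq2 (12.9%), without the filter (10.7%) and with the block (16.5%), and 0 with only the groups compared (5.87%). In the interaction it was 0 (4.15%), and became 1 with DESeq2 (7.92%), 2 without the filter (7.41%) and 1 with the block (9.55%). Leaving out 1 library also moved the number in each comparison with the *ERF* KD-labelled pair and in the interaction. A call of *TGFB1* was lost without any 1 of WT A, WT B or the *ERF* KD-labelled library A against WT, without that library or either codeletion library against the codeletion, and without that library or either *CIC* KO-labelled library in the comparison of the single-loss groups. The adjusted p of *TGFB1* reached 0.0956 in the second and 0.107 in the third of these comparisons.

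Of the 66 other genes listed, the 12 called in the *ERF* KD-labelled pair against WT (10.1% of all genes) became 27 without the filter (11.6%), 24 with the block (18.2%) and 6 to 12 with a library left out (4.1% to 9.77%), the 6 without the *ERF* KD-labelled library B (5.97%). The 14 in the codeletion against the *ERF* KD-labelled pair (11.7%) became 28 without the filter (12.6%), 27 with the block (20.6%), 9 with length-scaled counts (8.67%), 8 with limma at either pseudocount (7.6% and 8.09%) and 8 to 14 with a library left out (4.62% to 10.8%), the 8 without codeletion library A, and 9 without codeletion library B or the *ERF* KD-labelled library B. The 0 in the codeletion against WT (0.0682%) became 4 with DESeq2 (3.06%), 8 without the filter (3.46%) and 5 with the block (2.49%). The 6 in the interaction (4.15%) became 16 without the filter (7.41%) and 12 with the block (9.55%).

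No reversed value passed a test. Length-scaled counts gave 0.0272 for *TGFB1* in the *CIC* KO-labelled pair against WT and 0.0230 for *SMAD7* in the interaction, and limma gave the latter 0.0536 at a pseudocount of 1 and 0.0601 at 0.1. The other reversals came from leaving out 1 library, where a lone library is assumed to vary like the other groups. In the *ERF* KD-labelled pair against WT the ranges were -0.16 to 1.22 for *BMP4*, -1.20 to 0.35 for *ID2* and -0.71 to 0.27 for *ID3*. In the *CIC* KO-labelled pair against WT they were -0.18 to 0.12 for *TGFB1*, -0.29 to 0.26 for *TGFB2*, -0.45 to 0.48 for *INHBA*, -0.53 to 0.26 for *ID2* and -0.229 to 0.0918 for *SMAD7*. In the codeletion against WT they were -0.20 to 0.10 for *TGFB1*, -0.15 to 0.42 for *INHBA* and -0.23 to 0.66 for *ID2*. In the codeletion against the *ERF* KD-labelled pair they were -0.72 to 0.29 for *TGFB2*, -0.12 to 0.37 for *ID1*, -0.13 to 1.41 for *ID2* and -0.65 to 0.33 for *ID3*, and in the interaction -0.68 to 0.32 for *TGFB2* and -0.39 to 0.59 for *ID3*.

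With 2 libraries a group, *ID2*, *INHBA* and *BMP4* had the widest intervals. The *ERF* mRNA ties each direction to a label only. *TGFB1*, *TGFB2* and *ID2* share exonic bases with other genes, and the division of those reads was not tested.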
